A study of Rattus norvegicus with 15 samples.

Results

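The antioxidant and glutathione genes of the rat aorta are described here across 5 groups of rats. Members were chosen by gene symbol alone, from the families of superoxide dismutase, catalase, glutathione peroxidase, peroxiredoxin, thioredoxin, glutaredoxin, glutathione S-transferase, heme oxygenase, quinone reductase and metallothionein, with glutathione synthesis, the NRF2 regulators and a few oxidant-producing enzymes. The rule took 61 of the 15739 features measured. The arrays were one-colour Agilent arrays of Sprague Dawley aorta, 15 in number, and each held the pooled RNA of 2 rats of one group. The groups, 3 arrays each, were untreated, age-matched sham rats and 4 groups of rats with 5/6 nephrectomy (NX), a surgical model of chronic kidney failure. NX rats received intraperitoneal injections 3 times a week for 12 days of vehicle, of paricalcitol at 0.08 µg/kg, of alfacalcidol at 0.04 µg/kg or of VS-105 at 0.01 µg/kg. All 3 compounds are agonists of the vitamin D receptor. Paricalcitol is a synthetic analogue of the active hormone and alfacalcidol is a precursor that the liver converts to it. Because the doses differed, the compounds are set side by side and no pair of them was tested. Uninjected sham rats differ from NX-vehicle rats by surgery and by injection, and these cannot be told apart.

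Cells dispose of superoxide by dismutation to hydrogen peroxide, which catalase, the glutathione peroxidases and the peroxiredoxins then remove. Thioredoxin and glutathione supply electrons to the peroxidases and peroxiredoxins. The glutathione S-transferases join glutathione to reactive lipid products and foreign compounds. Many of these genes are activated by the transcription factor NRF2 (Nfe2l2), which its partner KEAP1 holds in check. In arteries, extracellular superoxide dismutase lies in the wall among smooth muscle cells, and NADPH oxidases and xanthine oxidase are known sources of superoxide.

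Values are log2 signals, and a level is never compared between genes, because probes differ in brightness. The 61 members ran from -4.25 to 9.54 over the arrays, and 3 of them (Gpx2, Gsta2 and Txnrd3) had a mean below -0.47, the level under which features were treated as low. The tissue label was borne by its markers: the 8 smooth muscle markers averaged 6.97 to 7.97 on the 15 arrays. Some arrays held transcripts of other tissues. The 9 intestinal epithelium markers averaged 2.61 on the third NX-vehicle array and -0.27 on the second, and between -4.34 and -1.83 on each remaining array. The mean of 10 skeletal muscle markers was 3.40 on NX-VS-105 array 1 against at most 0.10 elsewhere. White adipocyte markers (8 genes) ranged from 3.16 to 6.36, and erythroid markers (4 genes) were at 4.27 to 4.80 in sham and at 1.92 to 4.71 in the NX groups. In such bulk tissue, fewer cells of a type and less RNA per cell cannot be told apart.

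Against sham, the agonist groups had members past the test and the vehicle group had none. A member passed at an adjusted p under 0.05 (limma, Benjamini-Hochberg over all 15739 features within the comparison). The adjusted p depends on how many features differ in a comparison. Similar differences can therefore pass in some groups and fail in others. Hmox1 differed from sham by 0.80 in NX-vehicle (limma adjusted p = 0.438) and by 0.75 in NX-VS-105 (limma adjusted p = 0.0417). For Txnrd1 these were 0.51 (limma adjusted p = 0.457) and 0.54 (limma adjusted p = 0.0371). Gstm1, by contrast, had means of 2.66, 2.63 and 3.34 in sham, NX-vehicle and NX-VS-105. In NX-VS-105 against sham 12 members rose and 0 fell, 19.7% of the 61, where 15.9% of all features passed and 7.88% rose. In NX-paricalcitol against sham 7 rose and 1 fell (13.1%), where 6.98% of all features passed, 5.51% rising and 1.47% falling. In NX-alfacalcidol against sham 1 member rose (1.64%), beside 1.75% of all features passing and 1.17% rising. These 3 comparisons share the sham arrays.

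Of the comparisons with NX-vehicle, which share the vehicle arrays, NX-VS-105 was the one with members past the test. There 3 members rose and 0 fell (4.92%), beside 4.55% of all features passing and 2.4% rising. For NX-paricalcitol against NX-vehicle limma called 0 members, 0% of all features passed, 10 members and 2325 features had an unadjusted p under 0.05, and the same model without moderation called 0 members. For NX-alfacalcidol against NX-vehicle limma called 0 members and 0.0445% of all features passed, with 10 members and 2868 features at an unadjusted p under 0.05 and 0 members called without moderation. For NX-vehicle against sham limma called 0 members and 0% of all features, with 7 members and 1423 features at an unadjusted p under 0.05 and 0 members called without moderation. The moderated F test over the 5 groups called 7 members (Gstk1, Gstm1, Gstm7, Gsto1, Ncf4, Prdx6 and Txnrd1), where 6.16% of all features passed.

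The median difference of the 61 members was 0.43 (log2) in NX-VS-105 against sham, beside 0.06 for all features. There 52 members were positive (85.2%, beside 55.1% of all features). The members' median was 0.34 in NX-VS-105 against NX-vehicle, beside 0.07, with 48 positive (78.7%, beside 58.3% of all features). In the other comparisons the members' median stood closer to that of all features: 0.29 beside 0.10 for NX-paricalcitol against sham, 0.23 beside 0.14 for NX-alfacalcidol against sham, and 0.11 beside -0.04 for NX-vehicle against sham. Against NX-vehicle the medians were 0.16 beside 0.15 for paricalcitol and 0.16 beside 0.20 for alfacalcidol. The shifts depend on the scaling chosen. With array medians subtracted, which brings all-feature medians near 0 by construction, those of paricalcitol and alfacalcidol became 0.01 and 0.04 against NX-vehicle and -0.03 and -0.01 against sham. The members' medians then became 0.02 and 0.00 against NX-vehicle and 0.16 and 0.07 against sham. For NX-VS-105 they became 0.35 beside -0.02 against sham and 0.25 beside -0.02 against NX-vehicle. With NX-vehicle array 1 kept as the one vehicle array, on the deposited scale, the NX-VS-105 median against NX-vehicle was 0.22 beside 0.13.

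**Figure D1:**
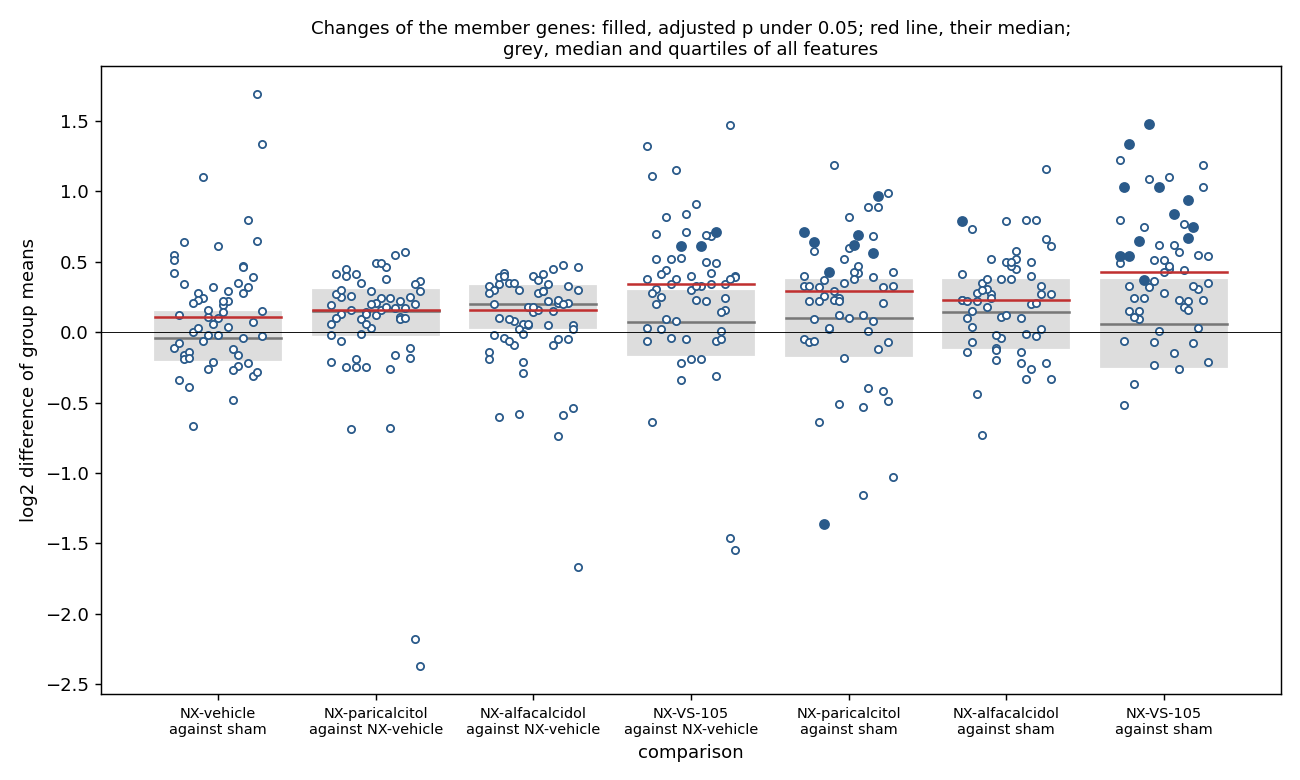
Log2 difference of group means (vertical axis) of each of the 61 genes in 7 comparisons, filled where the adjusted p is under 0.05, with the genes' median in red and the median and quartiles of all 15739 features in grey. With all arrays and the deposited scale, the red line stands above the grey median in both NX-VS-105 comparisons (0.34 beside 0.07 and 0.43 beside 0.06). Filled points number 12 in NX-VS-105 against sham.

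Direction of the calls also moved with scaling. In NX-paricalcitol against sham the all-feature calls were 867 higher and 231 lower as deposited, and 563 higher and 462 lower with array medians subtracted, when 4 members rose and 2 fell. In NX-VS-105 against sham they were 1240 higher and 1260 lower as deposited and 1190 higher and 2000 lower with medians subtracted, when 10 members rose and 0 fell. In NX-VS-105 against NX-vehicle 378 higher and 338 lower became 202 and 494, with 2 members rising. In NX-alfacalcidol against sham 184 higher and 91 lower became 142 and 205, with 2 members rising. Against NX-vehicle, all-feature calls with medians subtracted were 14 higher and 138 lower for alfacalcidol, where 4 and 3 had passed as deposited, and 0 higher and 14 lower for paricalcitol, where 0 had passed. Calls lost with medians subtracted were those of Txn1, Ncf4 and Sod3 in NX-paricalcitol against sham, of Txn1, Hmox1 and Prdx5 in NX-VS-105 against sham and of Gstk1 in NX-VS-105 against NX-vehicle. Calls gained included Nfe2l2, higher in NX-alfacalcidol against sham, and Ncf4, lower in NX-alfacalcidol against NX-vehicle. Those gained in NX-paricalcitol and NX-VS-105 against sham are not named here.

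Many calls lay near the threshold. Leaving out each of the 15 arrays in turn, 2 of the 24 calls (Gsto1 and Prdx6 in NX-VS-105 against sham) passed every time, and 22 were lost at least once, with no change of sign. Gstm1 in NX-VS-105 against sham passed in 14 of 15 fits, and Gpx3 and Nqo2 in 13 of 15. Gstk1 in NX-VS-105 against NX-vehicle passed in 4 of 15, as did Nfe2l2 and Txn1 in NX-VS-105 against sham and Ncf4 in NX-paricalcitol against sham. Over the 22 calls that were lost at least once, the limma adjusted p without 1 array reached at most 0.220. The log2 differences themselves stayed at 0.69 to 1.32 times their value with all arrays. Of the 24 calls, 11 were lost at least once without an array of a group outside the comparison, whose removal leaves the difference as it was and changes the estimate of the spread.

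Both regulators were measured. Nfe2l2, which encodes NRF2, was at 4.67, 4.27 and 4.72 on the sham arrays, 4.68, 5.24 and 4.77 on NX-vehicle, 4.98, 5.39 and 5.22 on NX-paricalcitol, 5.39, 5.28 and 5.19 on NX-alfacalcidol, and 5.16, 5.06 and 5.07 on NX-VS-105. All 9 agonist arrays lay above the 3 sham arrays, while NX-vehicle overlapped both. Such separation was common. All arrays of NX-paricalcitol, NX-alfacalcidol and NX-VS-105 lay above sham for 22.7%, 25.7% and 21.8% of all features (24, 19 and 30 of the 61 members). They lay above NX-vehicle for 12.3%, 17.8% and 12.8% (8, 6 and 15 members). NX-vehicle itself lay above sham for 4.77% of all features (7 members). All arrays of NX-paricalcitol and NX-alfacalcidol lay below sham for 9.23% and 6.56% of all features (7 and 2 members). NX-alfacalcidol lay below NX-vehicle for 5.66% (3 members). These shares are for 1 group at a time and bear on each separation given in the paragraphs that follow. Shares for several groups at once, such as all 9 agonist arrays or all NX arrays above sham, were not counted. Nfe2l2 rose by 0.64 ± 0.17 (log2 difference ± SE) in NX-paricalcitol against sham (limma adjusted p = 0.0448) and by 0.54 ± 0.17 in NX-VS-105 (limma adjusted p = 0.0471). In NX-alfacalcidol the difference was 0.73 ± 0.17, just outside the threshold (limma adjusted p = 0.0502). With array medians subtracted it was 0.58 and passed (limma adjusted p = 0.049). Against NX-vehicle its differences were 0.20 to 0.39 and none passed. Keap1, which targets NRF2 for degradation, was at 1.75 ± 0.27 in sham (mean ± SD, n = 3) and at 1.97 ± 0.02, 2.14 ± 0.15, 2.13 ± 0.23 and 2.20 ± 0.06 in NX-vehicle, NX-paricalcitol, NX-alfacalcidol and NX-VS-105. Its largest difference from sham, 0.45 in NX-VS-105, did not pass (limma adjusted p = 0.0590).

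NRF2 binds the antioxidant response element, whose core reads TGACNNNGC. RefSeq promoters (GRCr8, from 250 bases before to 50 after the gene start) were given for 52 of the 61 members. The core, searched on both strands, was found in 15 of the 52 (28.8%), against 4038 of 33469 promoters of all genes (12.1%). Of the 16 members called in any comparison, 12 had a promoter and 3 of them (Gstm7, Prdx5 and Nfe2l2) held the core, and of the members not called 12 of 40 did. The motif and the stretches shown were chosen after the values were known, and a match of letters is a description, not a site. Each stretch shown is 150 bases, 120 before the start and 30 from it, of members called in several comparisons (Gsto1, Txnrd1, Gstm1), with no core in them, and of 3 that hold it, in capitals (Prdx5 carries it on the opposite strand, so it is shown reversed and complemented).
Gsto1, chr1:256662411-256662560, plus strand: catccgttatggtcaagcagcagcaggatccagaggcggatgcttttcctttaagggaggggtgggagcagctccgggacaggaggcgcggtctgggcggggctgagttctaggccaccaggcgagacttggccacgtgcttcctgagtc
Txnrd1, chr7:22764822-22764971, minus strand: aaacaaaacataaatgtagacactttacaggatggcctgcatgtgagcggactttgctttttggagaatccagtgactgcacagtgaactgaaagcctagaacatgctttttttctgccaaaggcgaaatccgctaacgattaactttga
Gstm1, chr2:198343354-198343503, minus strand: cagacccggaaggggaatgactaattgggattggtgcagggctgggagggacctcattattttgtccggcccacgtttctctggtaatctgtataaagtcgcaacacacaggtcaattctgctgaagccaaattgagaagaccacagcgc
Gstm7, chr2:198260290-198260439, minus strand: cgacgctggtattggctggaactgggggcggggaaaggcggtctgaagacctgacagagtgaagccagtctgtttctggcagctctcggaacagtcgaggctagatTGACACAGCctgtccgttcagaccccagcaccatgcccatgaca
Prdx5, chr1:213531998-213532147, minus strand: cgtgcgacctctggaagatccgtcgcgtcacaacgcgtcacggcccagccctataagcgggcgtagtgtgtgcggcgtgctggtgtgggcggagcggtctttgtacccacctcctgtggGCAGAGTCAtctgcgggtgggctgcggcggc
Gstp1, chr1:210769676-210769825, minus strand: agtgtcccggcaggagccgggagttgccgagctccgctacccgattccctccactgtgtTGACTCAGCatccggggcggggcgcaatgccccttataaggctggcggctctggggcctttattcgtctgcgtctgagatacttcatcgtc

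Among the 3 superoxide dismutases, extracellular Sod3 passed in 1 comparison. Sod3 was at 8.83, 8.55 and 8.42 on the sham arrays, 8.52, 8.96 and 8.73 on NX-vehicle, 9.06, 9.54 and 9.07 on NX-paricalcitol, 9.02, 9.16 and 9.12 on NX-alfacalcidol, and 9.20, 9.02 and 8.98 on NX-VS-105. Every agonist array lay above every sham and every NX-vehicle array. Sod3 rose by 0.62 ± 0.16 in NX-paricalcitol against sham (1.54-fold, limma adjusted p = 0.0448), or by 0.49 with array medians subtracted, which did not pass (limma adjusted p = 0.0550). Its other differences from sham were 0.50 in NX-alfacalcidol (limma adjusted p = 0.0915) and 0.47 in NX-VS-105 (limma adjusted p = 0.0701). Against NX-vehicle they were 0.49, 0.37 and 0.33 for paricalcitol, alfacalcidol and VS-105, with limma adjusted p of 0.263, 0.266 and 0.253. Cytosolic Sod1 stayed between 7.75 and 8.21 on all 15 arrays, and its differences ran from -0.22 to 0.20. Mitochondrial Sod2 was at 4.20 ± 0.17 in sham, 4.02 ± 0.17 in NX-vehicle, and 4.42 ± 0.27, 4.42 ± 0.24 and 4.43 ± 0.33 in the paricalcitol, alfacalcidol and VS-105 groups. Neither passed in any comparison.

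Catalase (Cat), the peroxisomal enzyme that breaks down hydrogen peroxide, was at 1.43, 2.21 and 1.67 on the sham arrays, 2.89, 0.95 and 1.15 on NX-vehicle, 2.75, 1.13 and 1.29 on NX-paricalcitol, 2.46, 2.10 and 1.44 on NX-alfacalcidol, and 2.60, 2.81 and 3.55 on NX-VS-105. The spread within NX-vehicle was as wide as the distance between groups. The difference of 1.32 ± 0.53 between NX-VS-105 and NX-vehicle did not pass (limma adjusted p = 0.166), and it was 0.09 with NX-vehicle array 1 as the one vehicle array. That setting leaves out arrays 2 and 3, where intestinal markers were highest. Array 1 was the highest vehicle array for Cat, so keeping it alone had to shrink the difference. It also had the highest white adipocyte markers (6.36 against 3.24 and 3.62). The same holds for Prdx5, Gss, Gsto1 and Mgst1 in that setting below.

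Of 7 glutathione peroxidases, secreted Gpx3 passed in 1 comparison. Gpx3 was at 2.96, 3.02 and 3.48 on the sham arrays, 4.41, 4.48 and 3.88 on NX-vehicle, 4.14, 4.74 and 4.17 on NX-paricalcitol, 3.83, 3.37 and 3.82 on NX-alfacalcidol, and 5.55, 3.93 and 4.43 on NX-VS-105. Sham arrays lay below all NX arrays except one of NX-alfacalcidol. The means, 3.16, 4.26, 4.35, 3.67 and 4.64 in that order, were lowest in sham and NX-alfacalcidol, as were the means of 10 macrophage markers (2.26, 3.00, 2.99, 2.29 and 2.98), whose part in the Gpx3 result was not tested. Gpx3 rose by 1.48 ± 0.34 in NX-VS-105 against sham (2.79-fold, limma adjusted p = 0.0173), the largest difference among the member calls in the 7 comparisons. Without NX-VS-105 array 1, which held the skeletal muscle transcripts, the difference was 1.02 (limma adjusted p = 0.0394). In the remaining groups Gpx3 differed from sham by 1.10 in NX-vehicle (limma adjusted p = 0.457), 1.19 in NX-paricalcitol (limma adjusted p = 0.0544) and 0.52 in NX-alfacalcidol (limma adjusted p = 0.350).

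Gpx1, the cytosolic peroxidase, was at 8.72 ± 0.29 in sham, 8.76 ± 0.33 in NX-vehicle, 9.14 ± 0.22 in NX-paricalcitol, 9.16 ± 0.13 in NX-alfacalcidol and 8.57 ± 0.47 in NX-VS-105, and passed nowhere. Gpx8, a peroxidase of the endoplasmic reticulum, differed from sham by 0.89 in NX-paricalcitol (limma adjusted p = 0.0687) and 0.80 in NX-alfacalcidol (limma adjusted p = 0.109), against 0.33 in NX-VS-105 (limma adjusted p = 0.433). Gpx2, the peroxidase of the gut lining, was at -3.50, -1.81 and 0.83 on the NX-vehicle arrays and between -4.25 and -1.35 on the others. Its high array was NX-vehicle array 3, where the intestinal markers were also highest, as was that of Gsta2 (0.82 there and -4.08 to -1.70 on the arrays outside NX-vehicle). With NX-vehicle array 1 as the one vehicle array, the differences from sham turned from 1.34 to -0.66 for Gpx2 and from 1.69 to -0.03 for Gsta2. Array 1 was the lowest vehicle array for both genes, so keeping it alone had to lower these differences. Gpx4, Gpx6 and Gpx7 did not pass in any comparison.

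**Figure D2:**
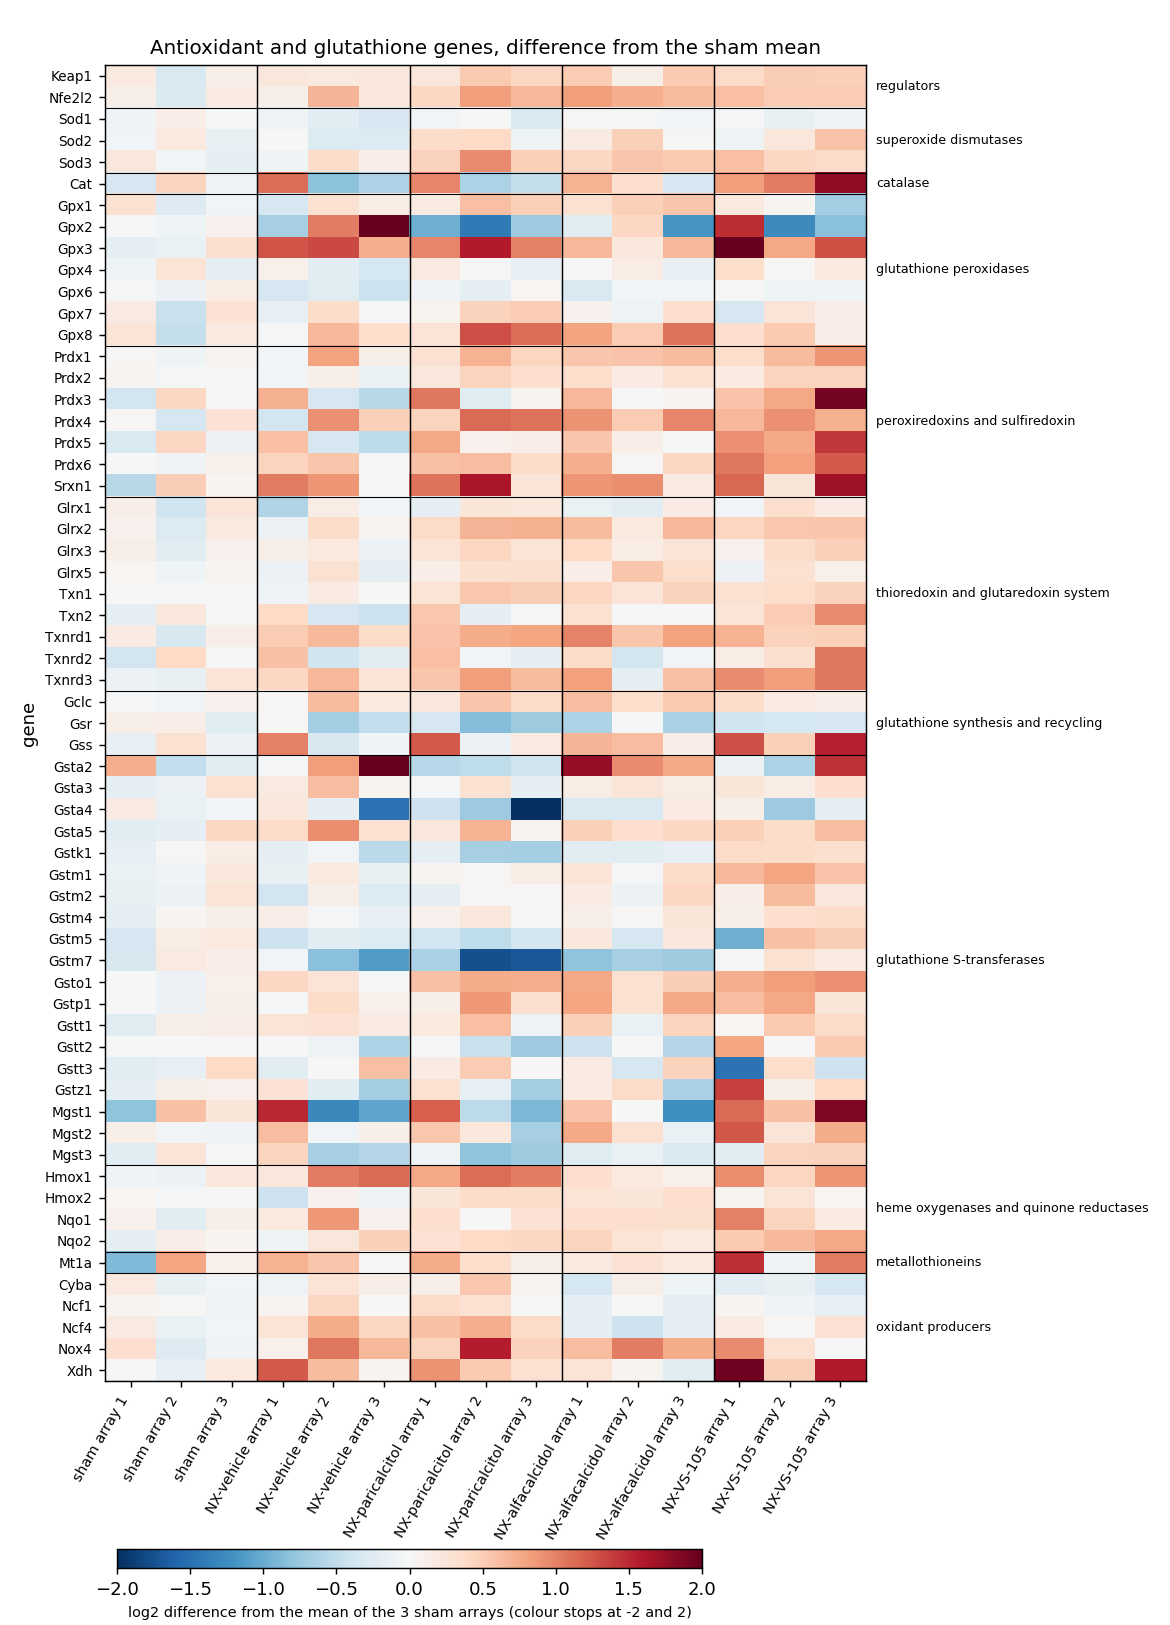
Log2 difference of each of the 61 genes (rows, by role) from the mean of the 3 sham arrays, for each of the 15 arrays (columns), with colour stopping at -2 and 2. Single arrays stand out in Cat, Mgst1 and Gpx2, while Txnrd1 and Nfe2l2 are above the sham mean on all 12 NX arrays.

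All 7 peroxiredoxin-group genes were positive in NX-VS-105 against sham, with a median of 1.03, and 2 of them passed. Of all features 55.1% were positive there, with a median of 0.06, and 15.9% passed. All 7 were also positive in NX-paricalcitol and NX-alfacalcidol against sham (medians 0.47 and 0.38), where 59.8% and 65.4% of all features were. Against NX-vehicle all 7 were positive for paricalcitol, alfacalcidol and VS-105 (medians 0.35, 0.30 and 0.42), as were 72.4%, 77.1% and 58.3% of all features. Prdx6, a peroxiredoxin that also acts on phospholipids, was at 3.71, 3.65 and 3.82 on the sham arrays, 4.16, 4.27 and 3.69 on NX-vehicle, 4.30, 4.33 and 4.09 on NX-paricalcitol, 4.44, 3.74 and 4.13 on NX-alfacalcidol, and 4.77, 4.54 and 4.95 on NX-VS-105. The 3 NX-VS-105 arrays lay above the other 12. Prdx6 rose by 1.03 ± 0.19 in NX-VS-105 against sham (2.04-fold, limma adjusted p = 0.00911), and this call held under every alternative setting tried. Against NX-vehicle the difference was 0.71 ± 0.19 (limma adjusted p = 0.0555).

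Prdx5, found in mitochondria, peroxisomes and cytosol, was at 5.76, 6.47 and 5.95 on the sham arrays, 6.66, 5.73 and 5.54 on NX-vehicle, 6.83, 6.15 and 6.19 on NX-paricalcitol, 6.61, 6.19 and 6.03 on NX-alfacalcidol, and 6.97, 6.82 and 7.48 on NX-VS-105. NX-VS-105 lay above sham and NX-vehicle but overlapped the highest NX-paricalcitol array. Prdx5 rose by 1.03 ± 0.31 in NX-VS-105 against sham (2.04-fold, limma adjusted p = 0.0428). Without NX-VS-105 array 1 the difference was 1.09 and did not pass (limma adjusted p = 0.0734). Its difference from NX-vehicle was 1.11 ± 0.31 (limma adjusted p = 0.0635), and 0.43 with NX-vehicle array 1 as the one vehicle array. Prdx5 was highest on the array with the highest white adipocyte marker mean in sham (array 2), NX-vehicle (array 1), NX-paricalcitol (array 1) and NX-VS-105 (array 3), though not in NX-alfacalcidol. The part of fat tissue in the Prdx5 result was not tested. Mitochondrial Prdx3 was at 5.09 ± 0.72 in NX-VS-105, 3.94 ± 0.68 in NX-vehicle and 4.00 ± 0.40 in sham and did not pass against either. Prdx2 was at 6.60 ± 0.04 in sham, 6.57 ± 0.13 in NX-vehicle and 6.93 ± 0.11, 6.87 ± 0.10 and 6.96 ± 0.16 in the paricalcitol, alfacalcidol and VS-105 groups. All 9 agonist arrays of Prdx2 lay above the NX-vehicle and sham arrays, and its smallest adjusted p was 0.0587 (limma, NX-VS-105 against sham). For a single agonist group, 21.8% to 25.7% of all features lay above sham and 12.3% to 17.8% above NX-vehicle. Prdx1, a cytosolic peroxiredoxin, differed from sham by 0.47, 0.58 and 0.62 in the same 3 groups, with a limma adjusted p of 0.0551 in the last. Srxn1, which repairs over-oxidised peroxiredoxins, varied from 1.25 to 3.49 and passed nowhere.

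The thioredoxin and glutaredoxin genes numbered 9, of which Txnrd1, Txn1 and Txnrd3 passed against sham. Txnrd1, the cytosolic thioredoxin reductase, was at 0.52, 0.03 and 0.49 on the sham arrays, 0.85, 1.00 and 0.72 on NX-vehicle, 0.92, 1.09 and 1.14 on NX-paricalcitol, 1.34, 0.91 and 1.15 on NX-alfacalcidol, and 1.04, 0.81 and 0.82 on NX-VS-105. All 12 NX arrays lay above the 3 sham arrays. Txnrd1 rose against sham by 0.71 ± 0.16 in NX-paricalcitol (limma adjusted p = 0.0304), by 0.79 ± 0.16 in NX-alfacalcidol (limma adjusted p = 0.0326) and by 0.54 ± 0.16 in NX-VS-105 (limma adjusted p = 0.0371). It was the one member past the test in all 3. In NX-vehicle the difference of 0.51 ± 0.16 did not pass (limma adjusted p = 0.457), and against NX-vehicle the agonist groups differed by 0.03 to 0.28 with no call.

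Txn1, cytosolic thioredoxin, was at 7.44, 7.43 and 7.48 on the sham arrays, 7.37, 7.62 and 7.44 on NX-vehicle, 7.72, 7.99 and 7.94 on NX-paricalcitol, 7.88, 7.70 and 7.91 on NX-alfacalcidol, and 7.75, 7.80 and 7.91 on NX-VS-105. The 9 agonist arrays lay above all 6 sham and NX-vehicle arrays. Txn1 rose against sham by 0.43 ± 0.11 in NX-paricalcitol (1.35-fold, limma adjusted p = 0.0439) and by 0.37 ± 0.11 in NX-VS-105 (1.29-fold, limma adjusted p = 0.0451). In NX-alfacalcidol the difference was 0.38 ± 0.11 (limma adjusted p = 0.0804). Against NX-vehicle it was 0.41, 0.35 and 0.34 for paricalcitol, alfacalcidol and VS-105, with limma adjusted p of 0.259, 0.210 and 0.106. With array medians subtracted, Txn1 differed from sham by 0.30 in NX-paricalcitol (limma adjusted p = 0.0770) and by 0.29 in NX-VS-105 (limma adjusted p = 0.0535), and neither passed. Txnrd3, a thioredoxin and glutathione reductase of low signal here, rose by 0.94 ± 0.22 in NX-VS-105 against sham (from -1.03 ± 0.23 to -0.09 ± 0.12, limma adjusted p = 0.0183). Mitochondrial Txn2 and Txnrd2 and the 4 glutaredoxins (Glrx1, Glrx2, Glrx3 and Glrx5) did not pass in any comparison.

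The 3 genes of glutathione synthesis and recycling passed in none. Gclc, the catalytic subunit of the rate-limiting enzyme of glutathione synthesis, was at 3.67 ± 0.07 in sham, 3.95 ± 0.32 in NX-vehicle, and 4.06 ± 0.16, 4.17 ± 0.13 and 3.89 ± 0.13 in the paricalcitol, alfacalcidol and VS-105 groups. All 9 agonist arrays were above the sham arrays, and the smallest adjusted p was 0.0883 (limma, NX-alfacalcidol against sham). Glutathione reductase (Gsr) differed from sham by -0.64 in NX-paricalcitol (limma adjusted p = 0.0827) and by -0.37 to -0.44 in the other NX groups. Glutathione synthetase (Gss) differed by 1.10 in NX-VS-105 against sham (limma adjusted p = 0.0771) and by 0.91 against NX-vehicle (limma adjusted p = 0.201), or 0.11 with NX-vehicle array 1 as the one vehicle array.

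Glutathione S-transferases were the largest family, with 19 genes, and supplied all 3 members that rose against NX-vehicle. Gsto1, of the omega class, which reduces dehydroascorbate and mixed disulfides, was at 3.93, 3.83 and 4.04 on the sham arrays, 4.35, 4.22 and 3.91 on NX-vehicle, 4.53, 4.68 and 4.66 on NX-paricalcitol, 4.69, 4.24 and 4.43 on NX-alfacalcidol, and 4.67, 4.78 and 4.86 on NX-VS-105. All 9 agonist arrays lay above sham, and the paricalcitol and VS-105 arrays lay above NX-vehicle as well. Gsto1 rose by 0.61 ± 0.14 in NX-VS-105 against NX-vehicle (1.53-fold, limma adjusted p = 0.0324). Against sham it rose by 0.84 ± 0.14 in NX-VS-105 (1.79-fold, limma adjusted p = 0.00691) and by 0.69 ± 0.14 in NX-paricalcitol (1.61-fold, limma adjusted p = 0.0255). The NX-VS-105 call against sham held under every alternative setting tried. In NX-alfacalcidol the difference from sham was 0.52 ± 0.14 (limma adjusted p = 0.0712).

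Gstm1, of the mu class, was at 2.52, 2.59 and 2.88 on the sham arrays, 2.51, 2.86 and 2.51 on NX-vehicle, 2.72, 2.68 and 2.81 on NX-paricalcitol, 2.93, 2.63 and 3.03 on NX-alfacalcidol, and 3.33, 3.45 and 3.23 on NX-VS-105. Only the NX-VS-105 arrays exceeded 3.03. Gstm1 rose by 0.71 ± 0.15 in NX-VS-105 against NX-vehicle (1.64-fold, limma adjusted p = 0.0204) and by 0.67 ± 0.15 against sham (1.60-fold, limma adjusted p = 0.0138). The NX-vehicle and sham means of Gstm1 were 2.63 and 2.66. The mu-class genes are close copies of each other, so the probe of one may also bind another.

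Gstk1, the mitochondrial and peroxisomal kappa-class enzyme, was at 3.55, 3.73 and 3.86 on the sham arrays, 3.53, 3.66 and 3.17 on NX-vehicle, 3.53, 3.05 and 3.03 on NX-paricalcitol, 3.50, 3.49 and 3.55 on NX-alfacalcidol, and 4.10, 4.07 and 4.03 on NX-VS-105. The 3 NX-VS-105 arrays lay within 0.07 of each other and above the other 12. Gstk1 rose by 0.61 ± 0.16 in NX-VS-105 against NX-vehicle (1.53-fold, limma adjusted p = 0.0478). Its difference from sham was 0.36 in NX-VS-105 (limma adjusted p = 0.135) and -0.51 in NX-paricalcitol (limma adjusted p = 0.0656). With NX-vehicle array 1 as the one vehicle array, the VS-105 differences from vehicle were 0.42 for Gsto1, 0.83 for Gstm1 and 0.53 for Gstk1, and none passed with 1 vehicle array. Without NX-vehicle array 3 alone they were 0.49, 0.65 and 0.47, with limma adjusted p of 0.159, 0.0988 and 0.220.

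Gstm7, also of the mu class, was the one member that fell in any comparison on the deposited scale. With array medians subtracted, 2 members fell in NX-paricalcitol against sham and 1 in NX-alfacalcidol against NX-vehicle. Gstm7 was at 3.75, 4.25 and 4.21 on the sham arrays, 4.02, 3.23 and 2.94 on NX-vehicle, 3.42, 2.32 and 2.38 on NX-paricalcitol, 3.26, 3.40 and 3.36 on NX-alfacalcidol, and 4.04, 4.37 and 4.24 on NX-VS-105. NX-paricalcitol and NX-alfacalcidol lay below sham, and NX-VS-105 overlapped the sham arrays. Gstm7 fell by 1.36 ± 0.30 in NX-paricalcitol against sham (limma adjusted p = 0.0303). In NX-VS-105 its difference was 0.82 from NX-vehicle (limma adjusted p = 0.135) and 0.15 from sham (limma adjusted p = 0.765). Its low arrays in the vehicle and paricalcitol groups (arrays 2 and 3) were also those with the lower white adipocyte marker means, 3.24 and 3.62 against 6.36 in NX-vehicle and 3.93 and 3.56 against 5.70 in NX-paricalcitol. In NX-alfacalcidol the marker means were 4.86, 5.18 and 3.16 while Gstm7 stayed within 3.26 to 3.40, and in NX-VS-105 they were 5.70, 5.01 and 5.90 with Gstm7 highest on array 2. The part of fat tissue in this result was not tested. Gstp1, the pi-class enzyme, was at 5.60 ± 0.11 in sham, 5.75 ± 0.20 in NX-vehicle and 6.03 ± 0.39, 6.21 ± 0.27 and 6.14 ± 0.28 in the paricalcitol, alfacalcidol and VS-105 groups and did not pass. The other 14 transferases did not pass in any comparison.

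**Figure D3:**
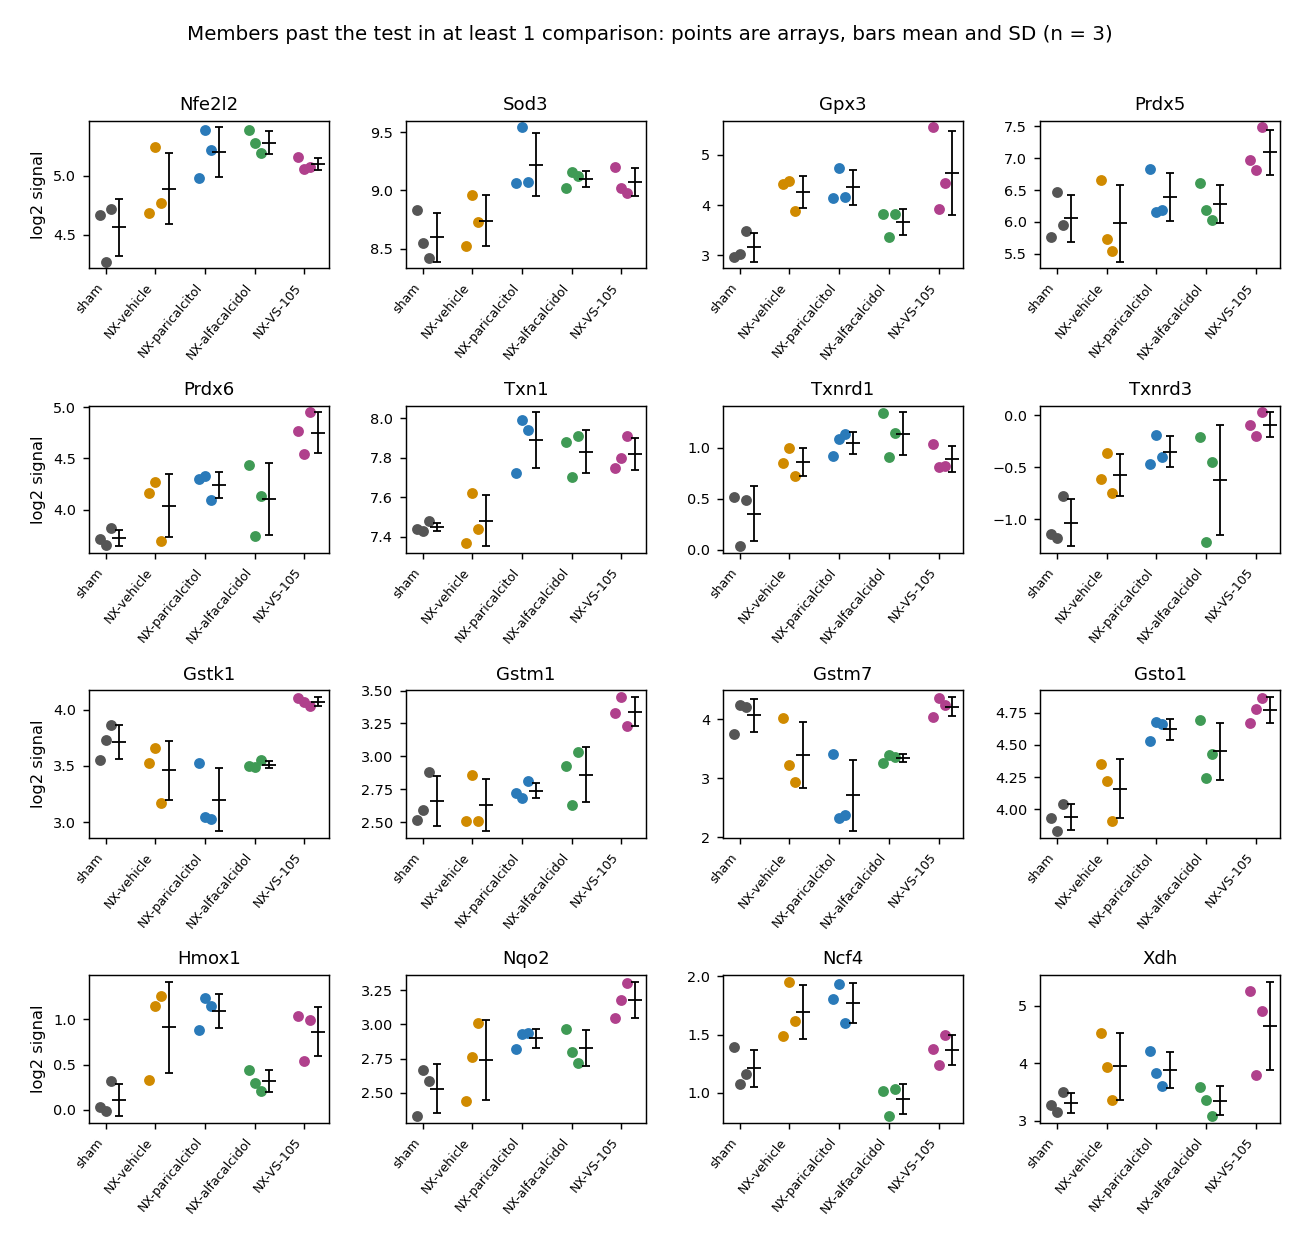
Log2 signal (vertical axis) of the 16 genes past the test in at least 1 comparison, with 1 point an array and the bars showing mean and SD of 3 arrays in each of the 5 groups. The NX-VS-105 points of Gstk1, Gstm1 and Prdx6 stand above all others, Txnrd1 is lowest in sham, and Gstm7 is lowest on 2 NX-paricalcitol arrays (2.32 and 2.38).

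Heme oxygenase 1 (Hmox1), the inducible enzyme that breaks down heme, was at 0.03, -0.01 and 0.32 on the sham arrays, 0.33, 1.15 and 1.25 on NX-vehicle, 0.88, 1.23 and 1.15 on NX-paricalcitol, 0.44, 0.30 and 0.21 on NX-alfacalcidol, and 1.04, 0.54 and 0.99 on NX-VS-105. NX-alfacalcidol overlapped sham, and the other NX groups lay above it. Hmox1 rose by 0.97 ± 0.22 in NX-paricalcitol against sham (1.96-fold, limma adjusted p = 0.0325) and by 0.75 ± 0.22 in NX-VS-105 (1.68-fold, limma adjusted p = 0.0417). Without NX-VS-105 array 1 the latter was 0.65 and did not pass (limma adjusted p = 0.113). Its difference was 0.80 ± 0.22 in NX-vehicle (limma adjusted p = 0.438) and 0.21 in NX-alfacalcidol (limma adjusted p = 0.583). The mean of the 10 macrophage markers was at 1.96 to 2.47 in sham, 2.66 to 3.35 in NX-vehicle, 2.86 to 3.13 in NX-paricalcitol, 2.25 to 2.35 in NX-alfacalcidol and 2.55 to 3.38 in NX-VS-105. Hmox1 and these markers were both lowest in sham and NX-alfacalcidol, and the part of macrophages in the Hmox1 result was not tested.

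Hmox2, the constitutive form, was at 4.14 ± 0.04 in sham, 4.00 ± 0.26 in NX-vehicle and 4.46 ± 0.07, 4.42 ± 0.05 and 4.26 ± 0.12 in the paricalcitol, alfacalcidol and VS-105 groups, with no call. Nqo2, a quinone reductase, was at 2.33, 2.67 and 2.59 on the sham arrays, 2.44, 2.76 and 3.01 on NX-vehicle, 2.82, 2.93 and 2.94 on NX-paricalcitol, 2.97, 2.80 and 2.72 on NX-alfacalcidol, and 3.05, 3.18 and 3.30 on NX-VS-105. The agonist arrays all lay above sham, with NX-VS-105 highest. Nqo2 rose by 0.65 ± 0.15 in NX-VS-105 against sham (1.57-fold, limma adjusted p = 0.0177). Nqo1, a classical NRF2 target, was at 0.27 ± 0.18 in sham and 0.65 ± 0.42, 0.48 ± 0.18, 0.60 ± 0.01 and 0.81 ± 0.43 in NX-vehicle, NX-paricalcitol, NX-alfacalcidol and NX-VS-105 and passed nowhere. Mt1a, a metallothionein that binds zinc and copper, ranged from 4.45 to 6.12 within sham alone and did not pass.

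Among 5 oxidant producers, Ncf4 and Xdh passed in 1 comparison each. Ncf4, a cytosolic subunit of the phagocyte NADPH oxidase, was at 1.39, 1.08 and 1.16 on the sham arrays, 1.49, 1.95 and 1.62 on NX-vehicle, 1.80, 1.93 and 1.60 on NX-paricalcitol, 1.02, 0.80 and 1.03 on NX-alfacalcidol, and 1.38, 1.24 and 1.50 on NX-VS-105. NX-vehicle and NX-paricalcitol lay above sham, and NX-alfacalcidol lay below every other group. Ncf4 rose by 0.56 ± 0.15 in NX-paricalcitol against sham (1.48-fold, limma adjusted p = 0.0444). In NX-alfacalcidol against NX-vehicle the difference was -0.74 ± 0.15, the smallest member p there, and did not pass (limma adjusted p = 0.0939). It passed with array medians subtracted (-0.90, limma adjusted p = 0.0126). The macrophage markers given for Hmox1 were likewise lowest in sham and NX-alfacalcidol. In NX-VS-105 the 2 did not go together. Its marker mean of 2.98 was near those of NX-vehicle and NX-paricalcitol (3.00 and 2.99). Its Ncf4 mean of 1.37 was below theirs (1.69 and 1.77), and its Ncf4 arrays overlapped sham. The part of macrophages in the Ncf4 result was not tested.

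Xdh, xanthine dehydrogenase, which makes uric acid and can release superoxide, was at 3.27, 3.15 and 3.50 on the sham arrays, 4.53, 3.94 and 3.37 on NX-vehicle, 4.21, 3.83 and 3.61 on NX-paricalcitol, 3.58, 3.37 and 3.08 on NX-alfacalcidol, and 5.25, 3.79 and 4.90 on NX-VS-105. NX-VS-105 and NX-paricalcitol lay above sham, and NX-VS-105 overlapped both NX-vehicle and NX-paricalcitol. Xdh rose by 1.34 ± 0.35 in NX-VS-105 against sham (2.54-fold, limma adjusted p = 0.0262). Without NX-VS-105 array 1, the highest array and the one with skeletal muscle transcripts, the difference was 1.04 and the call was lost (limma adjusted p = 0.0837). The Xdh means of sham and NX-alfacalcidol, 3.31 and 3.35, were the lowest, as were their macrophage marker means of 2.26 and 2.29. Within NX-vehicle and NX-paricalcitol Xdh was highest on array 1, as were the white adipocyte markers. In the other 3 groups the highest arrays differed. In NX-VS-105 Xdh was highest on array 1 (5.25) and the markers on array 3 (5.90). In sham these were array 3 (3.50) and array 2 (5.53), and in NX-alfacalcidol array 1 (3.58) and array 2 (5.18). The part of these cell types in the Xdh result was not tested. Nox4, the oxidase of smooth muscle cells, was at 1.12 ± 0.30 in sham, 1.73 ± 0.49 in NX-vehicle, 1.94 ± 0.65 in NX-paricalcitol, 1.91 ± 0.21 in NX-alfacalcidol and 1.54 ± 0.48 in NX-VS-105, with no call. Cyba, the membrane subunit shared by several NADPH oxidases, ran from 6.15 to 7.04, and Ncf1, a cytosolic subunit, from 2.51 to 3.12, with no call.

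Members differed widely in their spread between pools. The residual SD within groups had a median of 0.28 over the 61 members, beside 0.24 for all features, and ran from 0.11 to 1.24. It exceeded 0.5 in 10 members and was under 0.25 in 25. Mgst1, Cat, Prdx3, Prdx5 and Gss were each highest in their groups on NX-vehicle array 1 and NX-paricalcitol array 1, where white adipocyte markers were also highest. Brown adipocyte markers (7 genes) moved likewise, at 4.94, 1.98 and 2.98 in NX-vehicle and 4.42, 2.13 and 3.46 in NX-paricalcitol. Nerve and Schwann cell markers (4 genes) were at 1.96, -1.21 and -0.47 in NX-vehicle and 1.31, -0.46 and -0.43 in NX-paricalcitol. Mgst1, a microsomal transferase, was at 3.15, 4.54 and 4.20 on the sham arrays, 5.47, 2.67 and 2.91 on NX-vehicle, 5.16, 3.44 and 3.06 on NX-paricalcitol, 4.53, 3.95 and 2.74 on NX-alfacalcidol, and 5.09, 4.54 and 5.83 on NX-VS-105. White adipocyte markers on the same arrays were at 4.40, 5.53 and 5.06 in sham, 6.36, 3.24 and 3.62 in NX-vehicle, 5.70, 3.93 and 3.56 in NX-paricalcitol, 4.86, 5.18 and 3.16 in NX-alfacalcidol, and 5.70, 5.01 and 5.90 in NX-VS-105. The mean difference of Mgst1 between NX-VS-105 and NX-vehicle, 1.47 ± 0.76, did not pass (limma adjusted p = 0.272) and was -0.32 with NX-vehicle array 1 as the one vehicle array. The part of adipose tissue or nerve in the levels of these members was not tested.

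**Figure D4:**
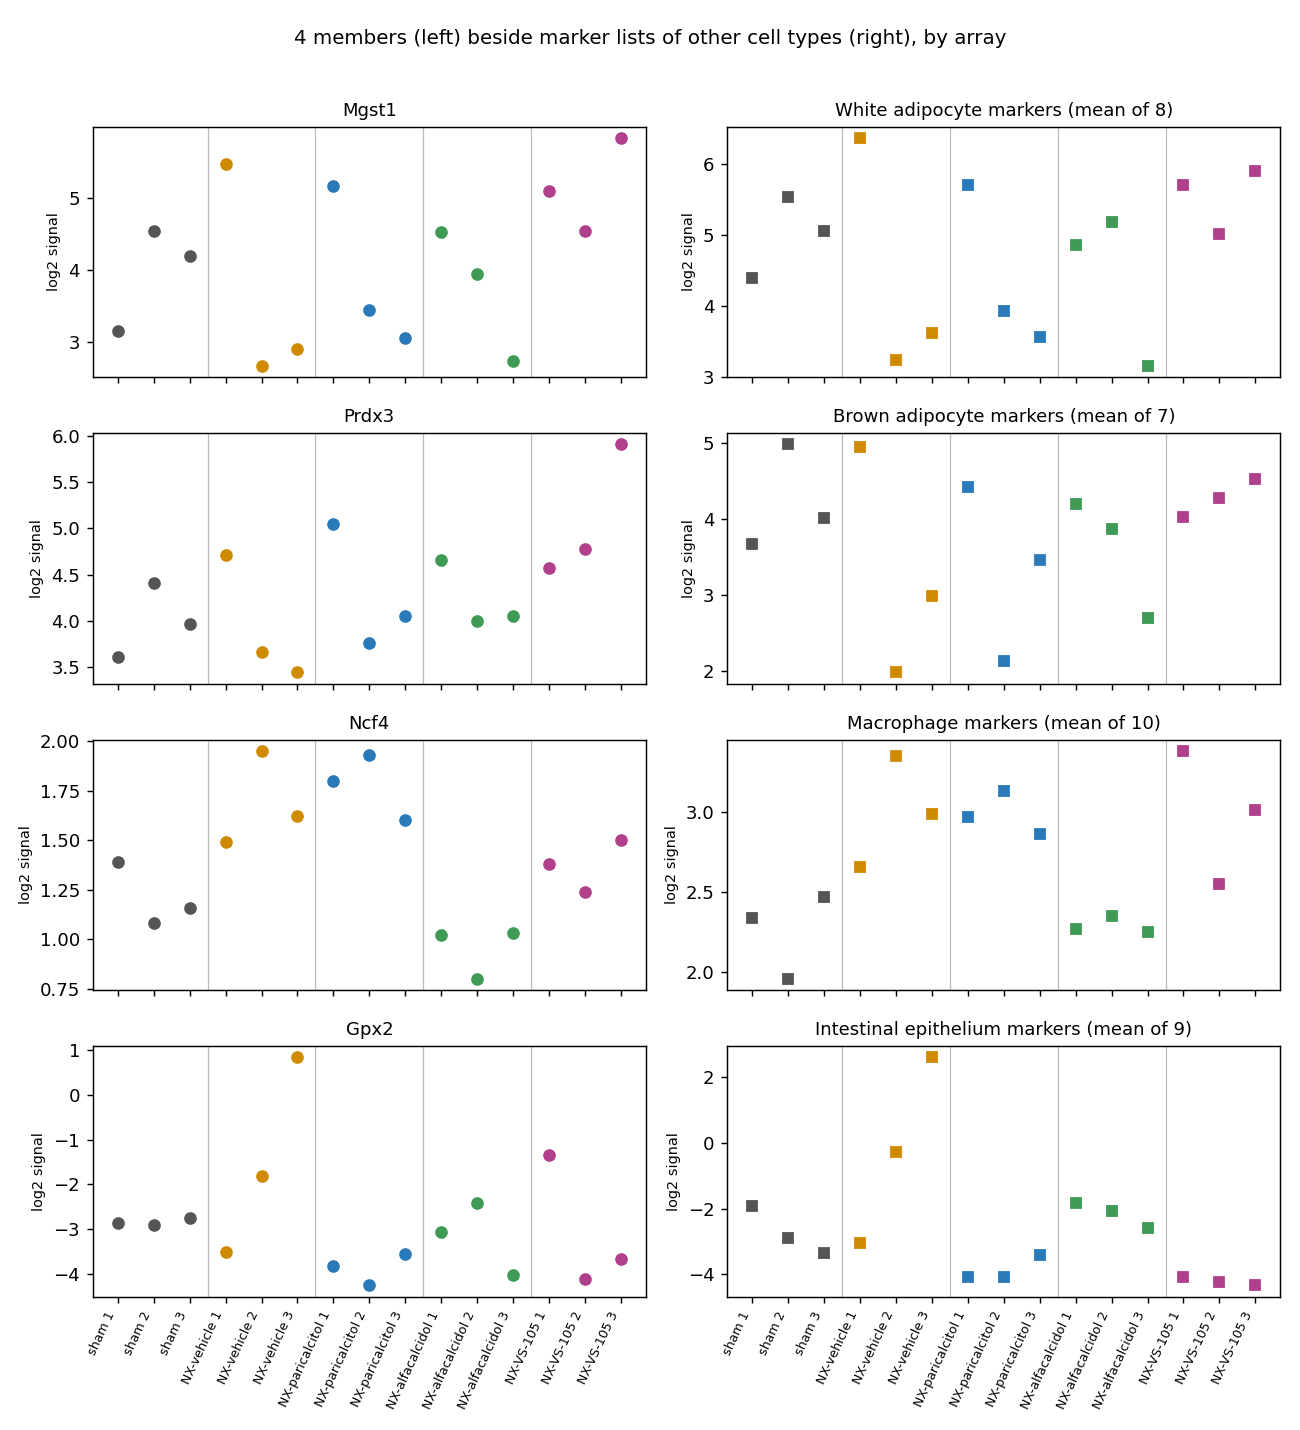
Log2 signal by array of 4 members (left, circles) beside the mean log2 signal of marker lists of other cell types (right, squares), coloured by group. Mgst1 and white adipocyte markers are both highest in NX-vehicle on array 1 (5.47 and 6.36), and Gpx2 and intestinal markers are both highest on NX-vehicle array 3 (0.83 and 2.61).

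Other genes of the pathway were counted from lists of 68 genes outside the rule, of which 55 were measured. Against sham 8 rose in NX-VS-105 (14.5%), 4 in NX-paricalcitol (7.27%) and 2 in NX-alfacalcidol (3.64%), and 0 fell in each. Of all features 15.9%, 6.98% and 1.75% passed in these comparisons in either direction, so the first 2 shares were near the background, and 7.88%, 5.51% and 1.17% rose. Against NX-vehicle 1 rose in NX-VS-105 (1.82%, beside 4.55% of all features passing), and limma called 0 of the list in NX-vehicle against sham, NX-paricalcitol against NX-vehicle and NX-alfacalcidol against NX-vehicle, where 8, 5 and 9 had an unadjusted p under 0.05. Ephx1, microsomal epoxide hydrolase, rose in every agonist group against sham: from 1.22 ± 0.17 to 2.99 ± 0.25 in NX-VS-105 (1.77 ± 0.22, limma adjusted p = 0.00167), to 2.58 ± 0.22 in NX-alfacalcidol (limma adjusted p = 0.0135) and to 2.16 ± 0.43 in NX-paricalcitol (limma adjusted p = 0.0327). In NX-vehicle it was at 2.00 ± 0.25, a difference of 0.78 from sham that did not pass (limma adjusted p = 0.438), and NX-paricalcitol differed from NX-vehicle by 0.15 (limma adjusted p = 0.741). It also rose in NX-VS-105 against NX-vehicle, by 0.99 ± 0.22 (limma adjusted p = 0.0259). Idh1, cytosolic isocitrate dehydrogenase, a source of NADPH, rose against sham by 0.99, 1.00 and 0.81 in NX-VS-105, NX-alfacalcidol and NX-paricalcitol (limma adjusted p = 0.0101, 0.0292 and 0.0345), and its difference in NX-vehicle was 0.46 (limma adjusted p = 0.533). Maff, a small MAF protein that partners NRF2, rose by 1.22 in NX-paricalcitol (limma adjusted p = 0.0471) and by 1.09 in NX-VS-105 (limma adjusted p = 0.0434), beside a difference of 0.87 in NX-vehicle (limma adjusted p = 0.518). The other 5 that rose in NX-VS-105 against sham were the peptidase gene Lap3, the GTPase gene Rac1, the lactonase gene Pon3, the methionine sulfoxide reductase gene Msra and Oxr1, by 0.53 to 1.20.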

How the data were processed

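The authors' deposited table holds log2 signals of 15739 features on 15 one-colour (Cy3) Agilent arrays, and Partek 6.0 is named, per the submitters' processing notes. How background was corrected and arrays were scaled was not stated in the sources used here. Array medians lay between 2.33 and 2.64. Deposited comparison sheets give a p-value and a signed fold change against sham for 89 genes, by the authors, and 0 of the 61 members are among them. The log2 scale was checked against those fold changes. All value columns were mapped to samples from the labels, with 0 left over.

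Group means of all features were fitted with limma 3.58.1 (lmFit, eBayes at its defaults) in R 4.3.3 on all 15 arrays, with 10 residual degrees of freedom. Tests were two-sided, with Benjamini-Hochberg adjustment over all features within a comparison and a threshold of 0.05. With 3 pools of 2 rats a group, p-values reflect how far pools differ, and so few arrays limit the precision. A difference is one of group means (log2) with its standard error. The procedure was tested on simulated data.

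Values are given for every member past the threshold (at most 12 a comparison), or for the 3 with the smallest p where none passed, for the 2 members of each role with the smallest F test p, and for a list of looked-up genes. Gclm, Cybb and Mt2A of that list, and Gpx5, Nox1 and Mt3 of the rule, are not analysed here. Values of further members were added after they were seen: Gpx2, Gsta2, Mgst1, Prdx3, Gss, Gstp1, Srxn1, Hmox2, Prdx2 and others outside these choices. The members, lists and tests were chosen with earlier results of these data known. Glrx1 and Mt1a are the files' names for current Glrx and Mt1.

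Replicate numbers in the titles were checked for pairing. Deviations from the group means of same-numbered arrays correlated at 0.62, 0.52 and 0.26 between NX-paricalcitol and NX-vehicle, and not above 0.1 in every pair of any other comparison. Whether a number marks a shared day or batch is not stated. Alternatives were 2 scalings, other estimates of the spread, array weights, 2 treatments of low values, only the compared groups, the replicate number as a block, and leaving out arrays. Promoters are from RefSeq (GRCr8), and coordinates are 1-based.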

Additional observations from a re-analysis of the deposited data

How the results depend on the processing

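Counts of members past the test rest on values near the threshold. Of 24 called differences of named members, the alternatives gave 623 values, of which 425 stayed past the threshold, 198 did not and 0 changed sign. Of 20 differences not called, 474 of 521 values stayed so, 44 passed, and 3 changed sign, all with NX-vehicle array 1 as the one vehicle array (Mgst1 in NX-VS-105 against NX-vehicle at -0.32, Gpx2 and Gsta2 in NX-vehicle against sham at -0.66 and -0.03). That array was the highest vehicle array for Mgst1 and the lowest for Gpx2 and Gsta2, so these differences had to move downwards.

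With one array left out at a time, members called ranged from 2 to 15 in NX-VS-105 against sham (12 with all arrays), 0 to 11 in NX-paricalcitol against sham (8), 0 to 3 in NX-alfacalcidol against sham (1), 0 to 7 in NX-VS-105 against NX-vehicle (3) and 0 to 9 in the F test (7). They stayed at 0 in NX-vehicle against sham and in paricalcitol and alfacalcidol against NX-vehicle. All-feature calls moved too. The count against sham fell to 2 for NX-VS-105 without sham array 1 (3.28% of members, beside 6.37% of all features) and to 3 without NX-VS-105 array 3 (4.92% beside 3.7%). It fell to 0 for NX-paricalcitol without sham array 2 or its own array 2, where 0% of all features passed, and without its array 3, where 0.82% did. The NX-VS-105 count against NX-vehicle was 0 without NX-vehicle array 3 or without NX-VS-105 array 2 or 3 (0.216%, 2.8% and 0.394% of all features), and 7 without NX-vehicle array 1 (8.1% of all features). The NX-alfacalcidol count against sham was 0 without sham array 2 or without its own array 1 or 3 (0.254%, 0.248% and 0.197% of all features). The F test count was 0 without sham array 3, NX-paricalcitol array 2, NX-alfacalcidol array 3 or NX-VS-105 array 3. Of all features 1.82%, 1.66%, 1.04% and 1.14% passed the F test in that order.

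With the replicate number as a block, calls were 1 in NX-VS-105 against NX-vehicle (1.64% of members, beside 2.64% of all features), 7 in NX-VS-105 against sham (11.5% beside 12%), and 0 in NX-paricalcitol against sham, NX-alfacalcidol against sham and the F test, where 1.87%, 0.661% and 1.35% of all features passed. For NX-paricalcitol against NX-vehicle, whose same-numbered arrays deviated together, 0 members passed with a block over all groups and with a block within those groups, an alternative added after seeing the data. Fitting only the groups compared gave 0, 3, 0 and 0 for NX-VS-105 against NX-vehicle, NX-VS-105 against sham, NX-paricalcitol against sham and NX-alfacalcidol against sham. The 3 were 4.92% of members, and 1.23%, 3.19%, 0.667% and 1.07% of all features passed in that order. Without moderation NX-paricalcitol against sham had 3, NX-alfacalcidol against sham 0 and the F test 3. These were 4.92%, 0% and 4.92% of members, beside 3.36%, 0.642% and 1.67% of all features. With trend and robust eBayes NX-VS-105 against NX-vehicle had 5 and NX-alfacalcidol against sham 2 (8.2% and 3.28% of members, beside 5.1% and 2.99% of all features). The same 5 and 2 were counted with low features left out (8.62% and 3.45%, beside 5.02% and 3.44%). The common floor gave 2 in NX-alfacalcidol against sham (3.28% of members, beside 2.1% of all features). With array medians subtracted NX-alfacalcidol had 2 against sham (3.28% beside 2.2%) and 1 against NX-vehicle (1.64% beside 0.966%). Quantile normalization gave 1 in NX-VS-105 (1.64% beside 3.76%) and 1 in NX-alfacalcidol (1.64% beside 0.743%) against NX-vehicle. With NX-vehicle array 1 as the one vehicle array, the spread of that group was taken from the other groups, so counts are left out here.

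Array weights raised most counts, of members and of all features. The default estimate stopped before it converged and gave NX-vehicle array 3, the one with intestinal transcripts, a weight of 18.22, where the others had 0.32 to 3.21. It then called 10 members in NX-vehicle against sham, 30, 37 and 36 in paricalcitol, alfacalcidol and VS-105 against NX-vehicle, 21 and 16 in paricalcitol and alfacalcidol against sham, 14 in VS-105 against sham, and 49 in the F test. Of all features 10.5%, then 52.1%, 64.4% and 35.8%, then 23.3%, 23.7% and 15.4%, and 75.7% passed in that order. Weights estimated gene by gene, chosen after those were seen, gave 0 in NX-vehicle against sham, 13, 23 and 23 against NX-vehicle (21.3%, 37.7% and 37.7% of members, beside 19.7%, 38.1% and 19.8% of all features), 18, 14 and 11 in paricalcitol, alfacalcidol and VS-105 against sham (beside 17.8%, 20.4% and 14.5%) and 31 in the F test (beside 41.2%). The cause of the other changes was not tested.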
